A study of Saccharomyces cerevisiae with 12 samples.

Results

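The large subunit of the cytoplasmic ribosome of Saccharomyces cerevisiae holds many ribosomal proteins, among them those whose genes are named RPL1 to RPL33. The 58 genes described here were taken by their systematic names from a table of 6100 genes, and all 58 had a row. They encode 33 protein families, of which 25 have 2 gene copies, named A and B, and 8 have 1 copy. The genes lie on 14 chromosomes. Total RNA of 2 strains was followed into stationary phase on 2-colour arrays, each sample against a reference RNA. One strain lacks YPL230W, the gene USV1, which encodes a zinc finger protein, and the other is its wild type, DBY8778. The deletion strain was sampled at 0, 2, 5, 7 and 9 hours and at 1 day, and the wild type at 0, 3, 5, 7 and 9 hours and at 1 day, with 1 array for each strain and time. The labels do not say from what event the hours were counted, how the deletion was made, or whether more than 1 culture of a strain was grown.

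In yeast, the genes for ribosomal proteins are transcribed at very high rates in cells that grow on plentiful nutrients, and their transcripts make up much of the messenger RNA of such cells. The factors Rap1, Fhl1 and Ifh1 bind their promoters, and signals through the TOR and protein kinase A pathways set their output. When nutrients run out, this set of genes is known to be shut down as a block. The large subunit joins amino acids at its peptidyl transferase centre, passes the growing chain through an exit tunnel, and carries 2 flexible stalks at which elongation factors and transfer RNA are handled.

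Each value below is a log2 ratio of the sample to the reference RNA, after the median gene of that array was set to 0. A value of -1 is therefore 2-fold below the median gene's ratio. The direction of the ratio is not given by the labels and is taken as likely from USV1 itself. USV1 had -1, -2.46, -1.40, 1.14, -0.98 and -0.29 along the 6 deletion arrays, against -0.57, 0.50, 0.28, 4.40, 3.94 and 2.59 along the 6 wild-type arrays. It was lower in the deletion strain at all 5 shared times, and over 7 hours, 9 hours and 1 day its strain difference was -3.69 (SE 0.37, limma adjusted p = 0.00118). The arrays held values for 5931 to 6085 genes, and the lowest correlation between 2 arrays over all genes was -0.07. The median of 8 known stress-induced genes, followed beside the ribosomal genes, was 4.58 in the deletion strain at 5 hours against 1.78 in wild type at 5 hours, and it was 4.97 in the deletion strain at 7 hours against 4.49 in wild type at 7 hours. Of the 8, GPH1 stayed near 0, at 0.20 in the deletion strain and -0.03 in wild type at 5 hours. Ratios centred in this way say nothing of the total amount of messenger RNA per cell, and fewer cells cannot be told apart from less RNA per cell.

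In both strains nearly all of the 58 genes lay near or above the median gene on the early arrays and far below it on the late ones, and the step fell within 1 sampling interval in each strain. In time order their median was 0.19, 0.28, -3.54, -3.01, -2.29 and -2.81 along the deletion course (0, 2, 5, 7 and 9 hours, 1 day). It was 0.30, 0.25, 0.09, -3.58, -2.79 and -2.36 along the wild-type course (0, 3, 5, 7 and 9 hours, 1 day). The low values were thus present at 5 hours in the deletion strain and were not present at 5 hours in wild type. None of the 58 genes was as much as 2-fold below 0 on the 5 early arrays, which are those of 0 and 2 hours in the deletion strain and of 0, 3 and 5 hours in wild type. On the 4 late arrays of the deletion strain, 57, 58, 58 and 57 of the 58 genes were at least 2-fold below 0. On the 3 late wild-type arrays all genes with a value were that low, 57 of 57 on the first and 58 on the other 2. Among all genes, 21.2% were that low in the deletion strain at 5 hours and 20.1% in wild type at 7 hours.

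**Figure D1:**
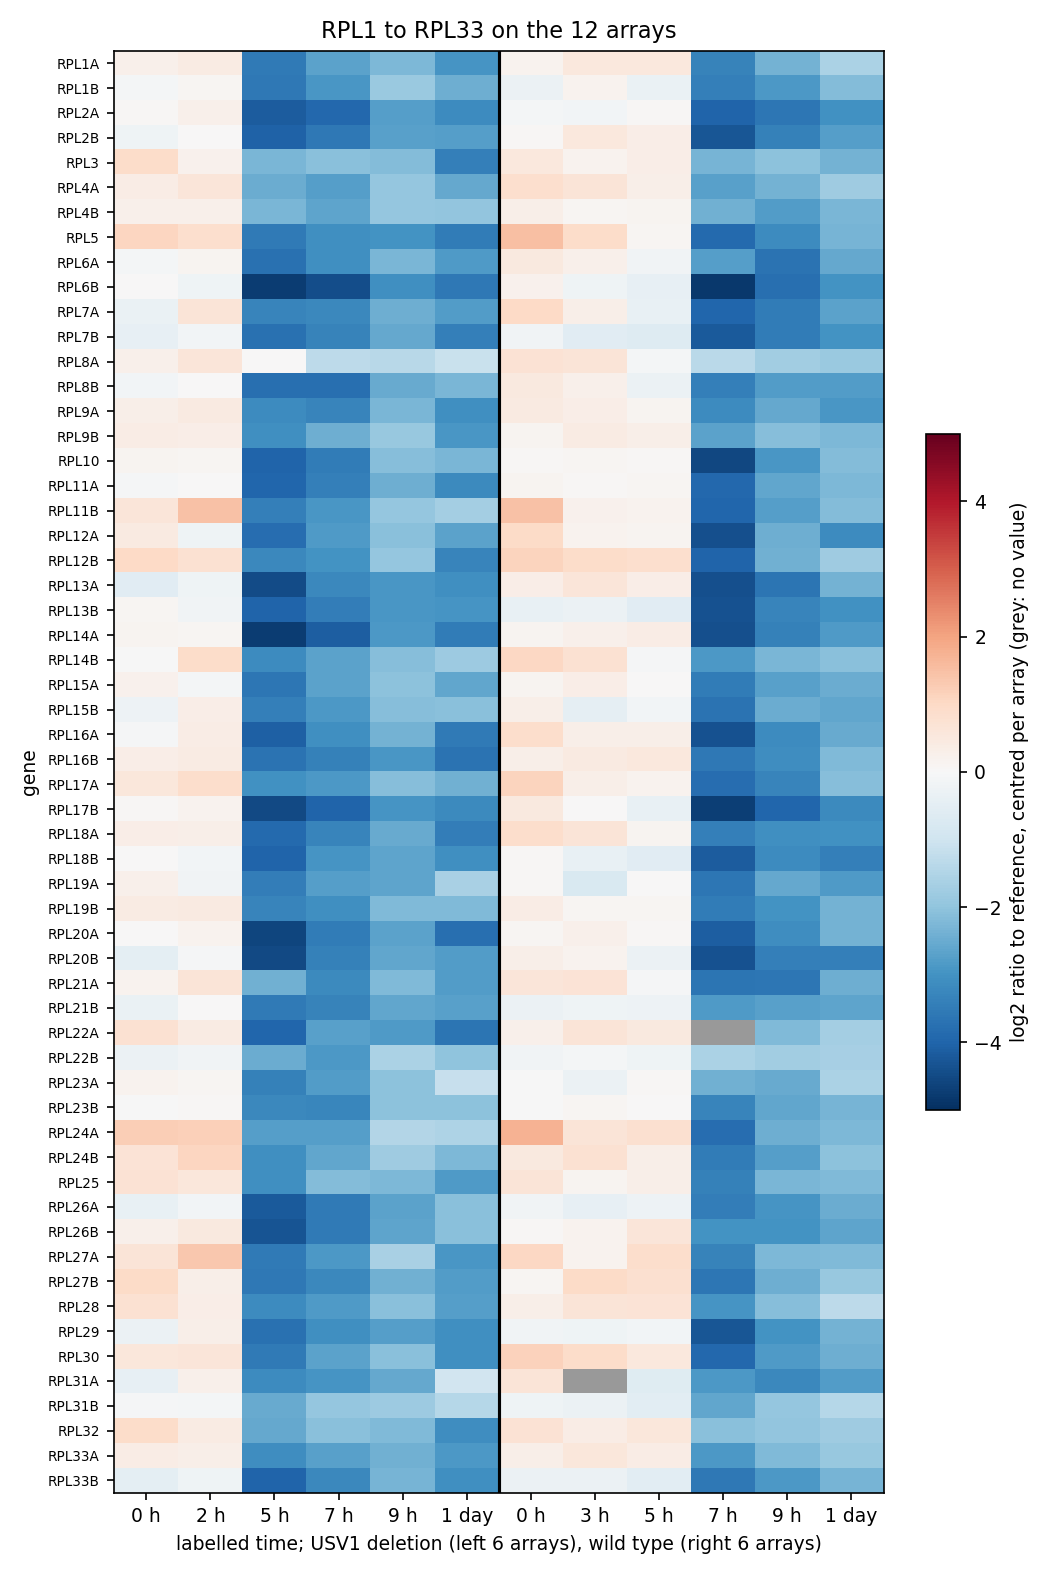
Log2 ratio to the reference RNA, each array centred to median 0, of the 58 genes (rows) on 12 arrays (columns), with the deletion strain to the left of wild type and time running low to high within each strain. The deletion strain is low over nearly all genes at 5 hours and after, wild type at 7 hours and after, and the row of RPL8A is the exception at 5 hours in the deletion strain.

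The step itself was a difference between 2 single arrays in each strain and carries no replicate check. Between 5 and 2 hours in the deletion strain the median difference over the 58 genes was -3.88, and 57 genes were at least 2-fold lower at 5 hours, against 21.5% of all genes. The remaining gene, RPL8A, differed by -0.56. Between 7 and 5 hours in wild type the median difference was -3.60, and 57 of 57 genes were at least 2-fold lower at 7 hours, against 18.2% of all genes. The first late array was also the lowest for most of these genes. In the deletion strain 46 of 58 had their lowest value at 5 hours. In wild type 50 of the 57 genes with a value at 7 hours had their lowest value there. The shares over all genes were not counted. These counts, and the differences that follow, are of centred values. Later arrays were less low. The median difference was 0.50 between 7 and 5 hours and 0.77 between 9 and 7 hours in the deletion strain, where 49 and 53 of 58 genes were higher at the later time, against 51.2% and 51.5% of all genes. It was 0.71 between 9 and 7 hours in wild type, where 50 of 57 genes were higher at 9 hours, against 54.1% of all genes. The SD of the values of all genes was 1.63, 1.43 and 1.17 on the deletion arrays at 5, 7 and 9 hours. On the wild-type arrays at 7 and 9 hours it was 1.46 and 1.41. Quantile normalization between arrays gives all arrays the same spread. After it, most of the 58 genes were lower at 7 than at 5 hours in the deletion strain. RPL2A then had -2.53 at 5 hours and -2.95 at 7 hours, whereas RPL13A had -2.73 and -2.36.

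**Figure D2:**
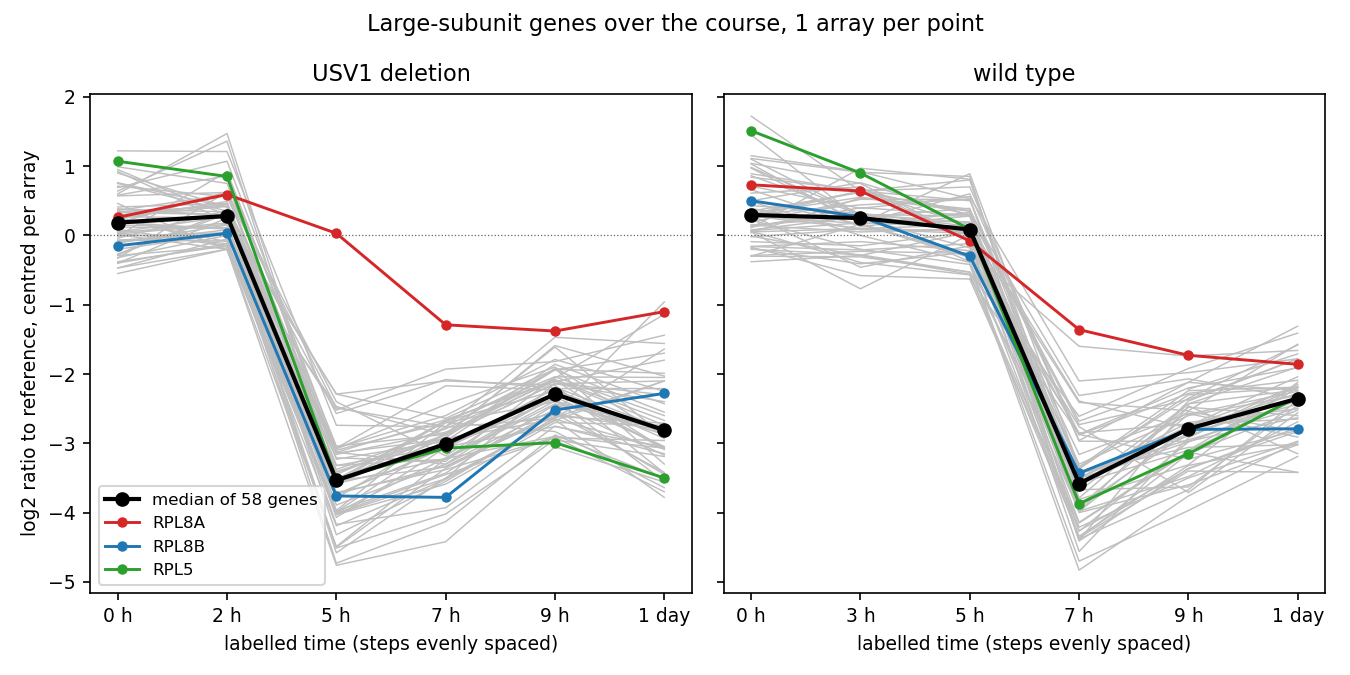
Log2 ratio to the reference RNA (vertical axis, centred to median 0 per array) against sampling time in order, with 1 line for each gene, RPL8A, RPL8B and RPL5 in colour, and a heavy black line for the median of the 58 genes, the deletion strain on the left and wild type on the right. The median stands at -3.54 in the deletion strain at 5 hours and at 0.09 in wild type at 5 hours.

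In the centred values the last interval ran in opposite directions. Between 1 day and 9 hours the median difference was -0.45 in the deletion strain, where 46 of 58 genes were lower at 1 day, against 51.5% of all genes. In wild type the same difference was 0.51, where 49 of 58 were higher at 1 day, against 50.8% of all genes. Of the 58 genes, 40 were both lower in the deletion strain and higher in wild type, against 25.8% of all genes. In the centred values the same held for 43 of 55 small subunit genes and for 16 of 23 further large subunit genes, RPL34 to RPL43 and the stalk proteins among them. Each of these differences rests on 2 arrays of 1 strain. After quantile normalization between arrays, which equalizes their spread, the 58 genes shared no direction over this interval in either strain. RPL3 then moved from -2.07 to -2.78 and RPL8B from -2.36 to -1.91 in the deletion strain. In wild type RPL6A moved from -2.94 to -2.38 and RPL18B from -2.40 to -3.07. Before it, the SD over all genes rose from 1.17 to 1.31 in the deletion strain and fell from 1.41 to 1.21 in wild type.

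Time effects were tested with limma over the 5 times that both strains share, with strain as a factor, so that each estimate is the mean of the 2 strains. For 7 hours against 0 hours, 36 of 57 tested genes fell at an adjusted p under 0.05, against 5.53% of all genes that fell in the same test. The estimates of the 57 genes had a median of -3.59, and the median over all genes was 0.03. The largest fall was that of RPL5, the protein that carries 5S ribosomal RNA into the subunit, by 4.76 on the log2 scale (SE 0.89, limma adjusted p = 0.0329). RPL24A, which encodes a protein at the face that meets the small subunit, fell by 4.75 on the log2 scale (SE 0.99, limma adjusted p = 0.0365). RPL6B encodes a surface protein found in eukaryotes, and it fell by 4.74 on the log2 scale (limma adjusted p = 0.0373). RPL17B, whose protein lines the exit tunnel, fell by 4.63 on the log2 scale (limma adjusted p = 0.0407). RPL12B encodes a protein at the base of the stalk that receives elongation factors, and it fell by 4.53 on the log2 scale (limma adjusted p = 0.0407). The genes that missed the threshold also had negative estimates, and the highest adjusted p among the 57 was 0.0812.

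At 9 hours and at 1 day the same genes remained low but few passed. For 9 hours against 0 hours, 2 of 58 genes fell, against 1.08% of all genes, and the median estimate was -2.90. RPL5 fell by 4.36 on the log2 scale (SE 0.89, limma adjusted p = 0.0364). RPL8A fell by 2.05 on the log2 scale (SE 0.39, limma adjusted p = 0.0301). For 1 day against 0 hours, 3 of 58 genes fell, against 1.22% of all genes, and the median estimate was -2.83. RPL5 had an estimate of -4.21 (SE 0.89, limma adjusted p = 0.0409), RPL3 of -3.60 (SE 0.69, limma adjusted p = 0.0314) and RPL8A of -1.98 (SE 0.39, limma adjusted p = 0.0334). All 58 estimates at 1 day were negative, between -4.21 and -1.29. The standard error had a median of 0.93 over the 58 genes and was smallest, 0.39, for RPL8A, which was called with one of the smaller falls. RPL8A was also the gene with the smallest strain difference at 5 hours, 0.11, and that difference enters the error of each gene. Without the 5-hour arrays, 57 of 57 genes fell at 7 hours (20.3% of all genes), 58 of 58 at 9 hours (17.2%) and 58 of 58 at 1 day (15.7%). After quantile normalization between arrays, 56 of 57 fell at 7 hours (12.6% of all genes), 57 of 58 at 9 hours (12.5%) and 52 of 58 at 1 day (12.5%). In other fits with fewer arrays the calls were lost, over all genes as well. At 7 hours without the 1-day arrays 0 of 57 passed, beside 23 of all 5782 in either direction. Without the 7-hour arrays 0 of 58 passed at 9 hours or at 1 day, beside 54 of all 5845 at 1 day.

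Trends along the 6 times of each strain were tested in 1 fit with the 2-hour and 3-hour arrays given the same step. In the deletion strain 3 of 58 genes fell, against 1.66% of all genes, with a median slope of -0.64 per step. The slopes were -0.82 for RPL3 (SE 0.16, limma adjusted p = 0.0316), -0.78 for RPL32 (SE 0.18, limma adjusted p = 0.0390) and -0.40 for RPL8A (SE 0.10, limma adjusted p = 0.0497). In wild type 2 of 58 genes fell, against 2.35% of all genes, with a median slope of -0.76 per step. The slopes were -0.61 for RPL8A (SE 0.10, limma adjusted p = 0.0217) and -0.68 for RPL3 (SE 0.16, limma adjusted p = 0.0408). The difference between the slopes, deletion minus wild type, had a median of 0.14 and passed for 0 of 58 genes, against 0.0% of all genes. At an unadjusted p under 0.05 limma gave 0 of the 58 genes and 216 of all 6011. RPL3 and RPL8A were the genes called in both strains. These counts turned on single arrays, from 0 to 28 genes for the deletion slope and from 0 to 43 for the wild-type slope when each array was left out in turn, the highest being without the deletion array at 5 hours. Calls over all genes, in either direction, moved as well, to 1158 of 6014 for the deletion slope and 1044 of 6014 for the wild-type slope without that array, and both slopes came to 0 over all genes without the 0-hour array of the strain in question.

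The 8 single-copy genes are described first, since no second copy shares their sequence. RPL3 (YOR063W) reaches from the surface into the peptidyl transferase centre. It had 0.92, 0.20, -2.29, -2.10, -2.16 and -3.43 along the deletion course, against 0.51, 0.16, 0.33, -2.31, -2.07 and -2.35 along the wild-type course. Its lowest value was at 1 day in both strains, unlike that of most genes. RPL10 (YLR075W) joins the subunit last, in the cytoplasm, and sits close to the same centre. RPL10 had 0.15, 0.11, -4.02, -3.51, -2.13 and -2.30 along the deletion course, against 0.05, 0.10, 0.06, -4.56, -2.92 and -2.18 along the wild-type course. Among the single-copy genes it had the lowest value in the deletion strain at 5 hours and in wild type at 7 hours.

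RPL5 (YPL131W), which with RPL11 forms the particle around 5S ribosomal RNA, started high. It had 1.07, 0.85, -3.52, -3.07, -2.99 and -3.50 along the deletion course, against 1.51, 0.90, 0.09, -3.87, -3.15 and -2.33 along the wild-type course. In wild type it already stood 1.42 lower at 5 hours than at 0 hours, the largest such difference among the 58 genes, while it was still above 0. RPL25 (YOL127W), which lies at the mouth of the exit tunnel, had 0.71, 0.56, -3.07, -2.17, -2.23 and -2.84 along the deletion course, against 0.66, 0.13, 0.28, -3.37, -2.30 and -2.20 along the wild-type course. RPL28 (YGL103W), the gene in which resistance to cycloheximide arises, had 0.75, 0.35, -3.16, -2.84, -2.09 and -2.74 along the deletion course, against 0.31, 0.64, 0.70, -2.96, -2.12 and -1.31 along the wild-type course. Its wild-type value at 1 day was the highest of all 58 genes on that array.

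RPL29 (YFR032C-A), a small protein without which yeast can still grow, was below 0 at the start. It had -0.28, 0.31, -3.74, -3.05, -2.76 and -3.05 along the deletion course, against -0.16, -0.21, -0.12, -4.27, -2.98 and -2.37 along the wild-type course. RPL30 (YGL030W) is known for binding its own transcript and blocking its splicing. It had 0.57, 0.62, -3.55, -2.67, -2.09 and -3.08 along the deletion course, against 1.15, 0.92, 0.53, -3.92, -2.84 and -2.44 along the wild-type course. RPL32 (YBL092W), a protein of eukaryotes and archaea, had 0.90, 0.41, -2.57, -2.08, -2.20 and -3.09 along the deletion course, against 0.71, 0.39, 0.56, -2.10, -1.98 and -1.78 along the wild-type course. All 8 single-copy genes shared the order of the strains at 5 hours, low in the deletion strain and near or above 0 in wild type.

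The genes were also grouped by the place of their proteins in the subunit, and values within a group could lie far apart. At the peptidyl transferase centre the 4 genes RPL2A, RPL2B, RPL3 and RPL10 had a median of -4.03 in the deletion strain at 5 hours and -4.13 in wild type at 7 hours, with RPL3 at -2.29 and -2.31 the highest of them on these arrays. The 3 genes of the 5S particle, RPL5, RPL11A and RPL11B, had -3.52 in the deletion strain at 5 hours and -3.91 in wild type at 7 hours. The 4 genes RPL4A, RPL4B, RPL17A and RPL17B, whose proteins line the tunnel, had -2.77 in the deletion strain at 5 hours and -3.27 in wild type at 7 hours, and ran from -4.51 for RPL17B to -2.29 for RPL4B in the first and from -4.70 for RPL17B to -2.39 for RPL4B in the second. RPL1A and RPL1B, which form the stalk beside the site where spent transfer RNA leaves, had -3.52 and -3.59 in the deletion strain at 5 hours, and -3.35 and -3.42 in wild type at 7 hours. Proteins found in all domains of life, 27 genes, had medians of -3.52 in the deletion strain at 5 hours and -3.58 in wild type at 7 hours. The 31 genes for proteins of eukaryotes and archaea only had -3.55 in the deletion strain at 5 hours and -3.54 in wild type at 7 hours. These groups hold few genes and their differences were not tested.

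Over 7 hours, 9 hours and 1 day in both strains, the deepest mean levels were those of RPL6B, at -3.77, RPL17B, at -3.67, and RPL14A, at -3.52. The shallowest were those of RPL8A, at -1.45, RPL31B, at -1.86, RPL22B, at -1.92, RPL23A, at -2.08, and RPL32, at -2.21. RPL6B had 0.01, -0.20, -4.76, -4.42, -3.05 and -3.56 along the deletion course, against 0.22, -0.20, -0.42, -4.83, -3.76 and -2.98 along the wild-type course. RPL6B was the lowest of the 58 genes in the deletion strain at 5 hours and in wild type at 7 hours. Ratios to the reference do not rank the genes by transcript amount.

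The strain comparison at each shared time rests on 1 array against 1 and has no replicate check. At 0 hours the median difference, deletion minus wild type, was -0.13, with 36 of 58 genes lower in the deletion strain, against 47.6% of all genes. At 5 hours it was -3.51 (-2.06 after quantile normalization), and 57 of 58 genes were at least 2-fold lower in the deletion strain, against 20.1% of all genes. The difference at 5 hours ran from -5.12 for RPL14A to 0.11 for RPL8A. At 7 hours it turned to 0.48, with 46 of 57 genes higher in the deletion strain, against 56.2% of all genes. At 9 hours it was 0.47, with 53 of 58 higher, against 53.7% of all genes. At 1 day it was -0.27, with 38 of 58 genes lower in the deletion strain, against 47.5% of all genes. The largest gap was thus at a single time. In the centred values smaller gaps followed, of the opposite sign at 7 and 9 hours and of the same sign at 1 day. After quantile normalization between arrays, the genes shared no direction between the strains at 7 hours, 9 hours or 1 day. At 9 hours RPL5 then had -2.90 in the deletion strain and -2.44 in wild type, and RPL6A -2.19 and -2.94. A comparison chosen with the values known set the first low arrays against each other. The deletion strain at 5 hours and wild type at 7 hours differed by a median of 0.04, with 26 genes lower and 31 higher in the deletion strain, against 46.8% and 52.8% of all genes.

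**Figure D3:**
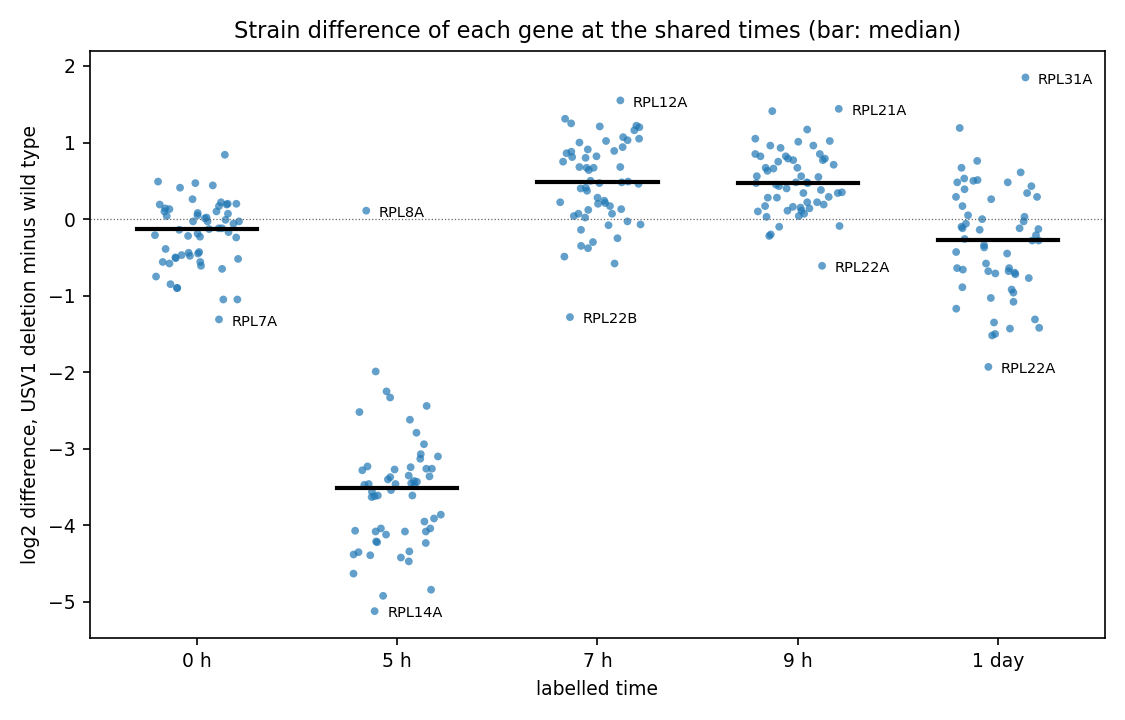
Difference between the strains in log2 ratio, deletion minus wild type (vertical axis), at each of the 5 shared times, with 1 point for each of the genes RPL1 to RPL33 and a bar at their median. The points at 5 hours lie around -3.51 with RPL8A alone at 0.11, and those of 0 hours, 7 hours, 9 hours and 1 day lie on both sides of 0.

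At 1 day the genes spread more between the strains than at 9 hours, with an SD over genes of 0.74 at 1 day and 0.41 at 9 hours. Over all genes the SD was 0.75 at 1 day and 0.55 at 9 hours. In the deletion strain 10 genes were at least 2-fold lower than in wild type, against 8.95% of all genes, and 2 were at least 2-fold higher, against 9.07%. RPL22A differed by -1.93, RPL12B by -1.52, RPL16B by -1.50, RPL28 by -1.43 and RPL20A by -1.42. On the other side RPL31A differed by 1.85 and RPL19A by 1.19. The genes did not share a direction between the strains at 1 day. In 11 of 25 pairs one copy was lower and the other higher in the deletion strain at 1 day, and the number was also 11 of 25 at 0 hours. At 1 day RPL20A differed by -1.42 and RPL20B by 0.61.

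Tested over the 5 shared times with limma, the strain effect passed for 0 of 58 genes, against 0.0% of all genes. At an unadjusted p under 0.05 there were 0 of the 58 and 260 of all 6062. Over all genes the median estimate was 0.05, and signs were not counted. For the 58 genes the median estimate was -0.66, with 57 of 58 negative. The smallest p-values were those of RPL22A, with an estimate of -1.63 (SE 0.72), RPL22B, with -0.78 (SE 0.37), and RPL32, with -0.89 (SE 0.47), and the limma adjusted p was 0.814 for each. RPL22A entered this fit without a wild-type value at 7 hours. Without the 5-hour arrays the median estimate was 0.11. Over 7 hours, 9 hours and 1 day alone, the strain effect passed for 0 of 57 genes, against 0.0348% lower and 0.0% higher of all genes. At an unadjusted p under 0.05, 6 of the 57 were higher in the deletion strain, against 644 of all 5742 in either direction. RPL24A had an estimate of 0.89 (SE 0.28, limma adjusted p = 0.361), RPL20B of 0.81 (limma adjusted p = 0.381) and RPL11B of 0.79 (limma adjusted p = 0.381). The median of these late estimates was 0.25, and it was -0.01 after quantile normalization between arrays.

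Copies of a family encode nearly the same protein, and their spotted probes may bind each other's transcripts, so that differences between copies may be understated. Across 25 pairs there were 298 differences between the A and the B copy on the same array. Of these, 34 were at least 2-fold, in 14 pairs, while 11 pairs never parted that far. The SD of the difference over the arrays had a median of 0.43 among the pairs, and it was 0.54 for 2 genes of different families, 1628 such pairs. The correlation over the arrays had a median of 0.969 among copies and 0.966 among genes of different families, where all points share the same 12 arrays. Copies were thus little closer to each other in their course than to the other genes.

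RPL8, encoded by RPL8A (YHL033C) and RPL8B (YLL045C), had the largest gap and the largest SD of the difference between copies. Its protein takes part in early steps of large subunit assembly. RPL8A had 0.26, 0.59, 0.03, -1.29, -1.38 and -1.10 along the deletion course, against 0.73, 0.64, -0.08, -1.36, -1.73 and -1.86 along the wild-type course. RPL8B had -0.15, 0.03, -3.76, -3.78, -2.52 and -2.28 along the deletion course, against 0.50, 0.27, -0.30, -3.43, -2.80 and -2.79 along the wild-type course. The A copy was the higher one on all 12 arrays. The gap was 3.79 in the deletion strain at 5 hours, where RPL8A stayed at the median gene and RPL8B was among the low ones. It was 2.49 in the deletion strain at 7 hours and 2.07 in wild type at 7 hours, and it ran between 0.22 and 1.18 on the other 9 arrays. The SD of the difference was 1.08 over the 12 arrays.

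**Figure D4:**
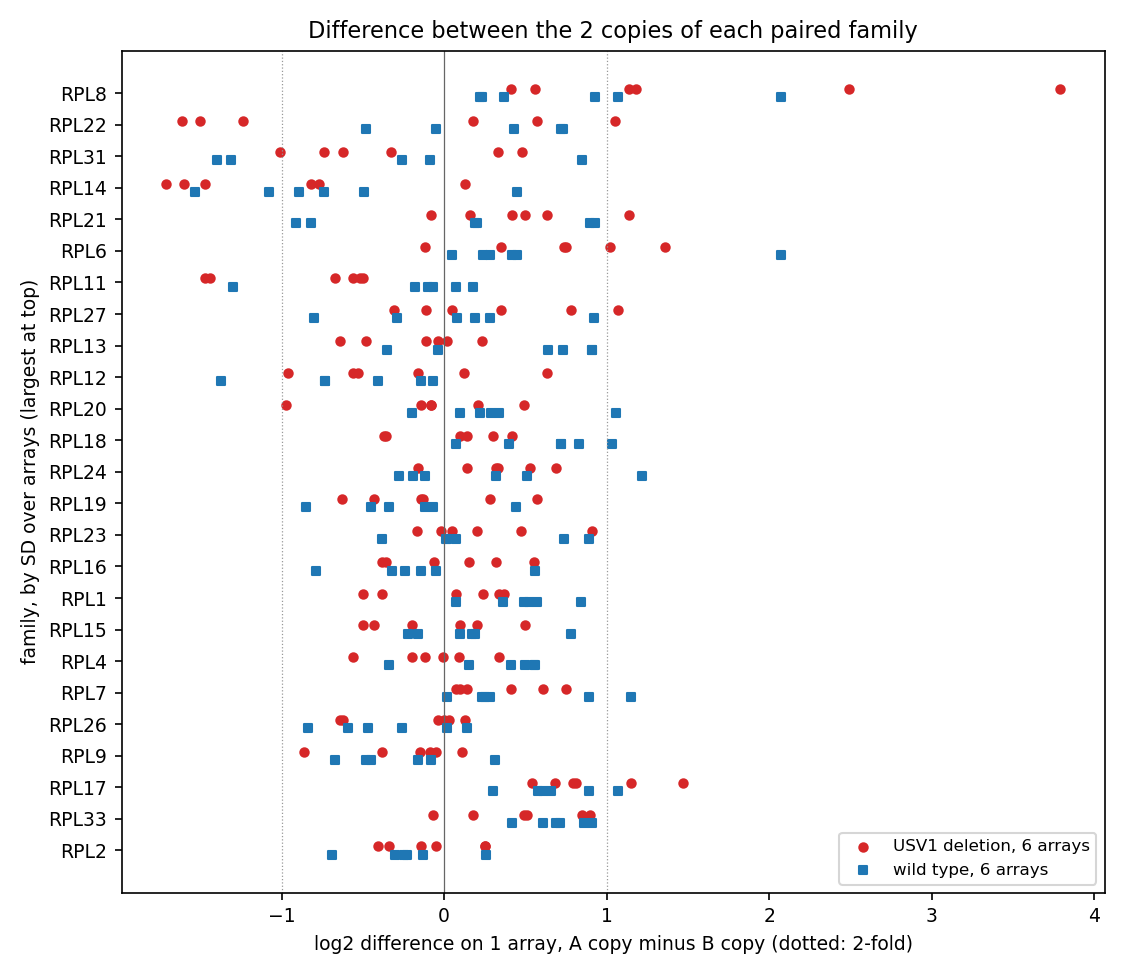
Log2 ratio of the A copy minus that of the B copy (horizontal axis) for each of the 25 paired families (rows), with 1 point for each array (circles for the deletion strain, squares for wild type) and the families ordered by the SD of the difference, the largest at the top. RPL8 reaches 3.79 in the deletion strain at 5 hours, and RPL2 and RPL33 have the smallest SDs; RPL22 and RPL31 have 11 arrays each.

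RPL22, encoded by RPL22A (YLR061W) and RPL22B (YFL034C-A), whose protein in yeast represses the splicing of the RPL22B transcript, had the second largest SD of the difference, 0.96 over 11 arrays. RPL22A had 0.76, 0.41, -3.97, -2.70, -2.83 and -3.64 along the deletion course, against 0.27, 0.64, 0.50, no value at 7 hours, -2.22 and -1.71 along the wild-type course. RPL22B had -0.29, -0.16, -2.47, -2.88, -1.59 and -2.03 along the deletion course, against -0.16, -0.09, -0.22, -1.60, -1.74 and -1.66 along the wild-type course. The A copy stood above the B copy on all 5 early arrays, and below it on 5 of the 6 late ones with both values, 7 hours in the deletion strain being the other.

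RPL31, encoded by RPL31A (YDL075W) and RPL31B (YLR406C), which lies at the mouth of the exit tunnel, had an SD of 0.73 over 11 arrays. RPL31A had -0.40, 0.25, -3.14, -2.94, -2.56 and -0.96 along the deletion course, against 0.65, no value at 3 hours, -0.62, -2.87, -3.23 and -2.81 along the wild-type course. RPL31B had -0.07, -0.08, -2.52, -1.93, -1.82 and -1.44 along the deletion course, against -0.20, -0.28, -0.53, -2.61, -1.92 and -1.41 along the wild-type course. RPL31A was the gene of the 58 that was not 2-fold below 0 in the deletion strain at 1 day. RPL14, a protein of eukaryotes and archaea, came after it with an SD of 0.67. RPL14A had 0.12, 0.10, -4.73, -4.13, -2.88 and -3.51 along the deletion course, against 0.15, 0.26, 0.39, -4.41, -3.36 and -2.83 along the wild-type course. RPL14B had -0.01, 0.92, -3.13, -2.66, -2.11 and -1.80 along the deletion course, against 1.04, 0.75, -0.06, -2.88, -2.28 and -2.09 along the wild-type course. Every late value of RPL14A lay below that of RPL14B.

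The steadiest pairs were RPL2, with an SD of 0.29, and RPL33, with an SD of 0.30. RPL2A had 0.05, 0.27, -4.17, -3.93, -2.75 and -3.15 along the deletion course, against -0.09, -0.15, 0.05, -4.00, -3.60 and -3.02 along the wild-type course. RPL2B had -0.20, 0.02, -4.03, -3.59, -2.70 and -2.74 along the deletion course, against 0.04, 0.54, 0.35, -4.26, -3.37 and -2.77 along the wild-type course. Of RPL2, a protein next to the peptidyl transferase centre, the B copy was the higher one on 9 of 12 arrays. RPL33A had 0.38, 0.29, -3.10, -2.70, -2.40 and -2.87 along the deletion course, against 0.31, 0.55, 0.38, -2.87, -2.20 and -1.91 along the wild-type course. RPL33B had -0.47, -0.20, -4.00, -3.21, -2.33 and -3.05 along the deletion course, against -0.30, -0.31, -0.53, -3.58, -2.89 and -2.33 along the wild-type course. RPL33A was the higher copy on 11 of 12 arrays.

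Likeness was described by the correlation of each gene with the median of the other members over the 12 arrays, all of which share the one large step. It was at least 0.95 for 52 of the 58 genes. The highest values were those of RPL14A, at 0.995, RPL6B, at 0.995, and RPL2A, at 0.994. The lowest were those of RPL8A, at 0.783, RPL31A, at 0.891 over 11 arrays, and RPL3, at 0.936. Among 5306 other genes with all 12 values, the 5 most alike were RPS18B, at 0.997, RPS22A, at 0.995, YPL142C, at 0.995, RPS6B, at 0.994, and RPL34A, at 0.994. Of the 50 most alike, 25 encode small subunit proteins, 10 encode further large subunit proteins and 15 are in none of the lists used here. These 15 include YPL142C, YLL044W, YDR417C, YLR076C, YLR062C and YGL102C, each numbered next to one of the 58 genes. They also include YLR339C, numbered next to the further large subunit gene RPP0 (YLR340W).

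YPL142C has the systematic number next to that of RPL33A. In all, 8 reading frames that the RefSeq table does not list carry a number next to that of one of the 58 genes. For 7 of them the correlation with that gene was between 0.940 and 0.994 over 11 or 12 arrays, and for YBR190W, next to RPL21A, it was 0.310. YGL102C, next to RPL28, had 0.53, 0.47, -3.24, -2.86, -2.09 and -3.33 along the deletion course, against 0.30, 0.60, 0.65, -3.40, -2.17 and -1.61 along the wild-type course. YLL044W, next to RPL8B, had -3.78 in the deletion strain at 5 hours, close to the -3.76 of RPL8B. Whether such probes share sequence with the ribosomal gene was not tested.

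The rest of the ribosome followed the same course. Of 23 further large subunit genes, 15 fell at 7 hours against 0 hours and 1 at 1 day against 0 hours. Of all genes, 5.53% fell in the first test and 1.22% in the second. RPP0, the stalk protein that holds the acidic P proteins, fell by 4.01 on the log2 scale at 1 day (SE 0.85, limma adjusted p = 0.0409). RPL34B, a protein of eukaryotes and archaea, had an estimate of -3.64 at 1 day (limma adjusted p = 0.053). Of 55 small subunit genes in the table, 38 fell at 7 hours and 2 at 1 day, beside the same 5.53% and 1.22% of all genes. ASC1, a protein at the head of the small subunit with roles in signalling, fell by 3.80 on the log2 scale at 1 day (SE 0.75, limma adjusted p = 0.0353). RPS9B had an estimate of -4.25 at 1 day (limma adjusted p = 0.0854). The small subunit median was -3.49 in the deletion strain at 5 hours and -3.51 in wild type at 7 hours, beside -3.54 and -3.58 for the genes RPL1 to RPL33.

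Of 7 genes for proteins that escort large subunit proteins or the 5S particle into assembly, 1 fell at 7 hours, against 5.53% of all genes. RPF2, which brings in the 5S particle, fell by 2.67 on the log2 scale at 7 hours (SE 0.71, limma adjusted p = 0.0484), and 0 of 7 passed at 1 day. RRB1, the chaperone of RPL3, had an estimate of -2.01 at 1 day (limma adjusted p = 0.199), and SQT1, the chaperone of RPL10, had -1.32 (limma adjusted p = 0.293). The median of the 7 genes was -3.41 in the deletion strain at 5 hours and -0.60 in wild type at 5 hours. The 10 regulators of ribosomal protein genes or of other ribosome-related genes had a median between -0.35 and 0.16 on every array, but they went both ways. In the deletion strain at 5 hours 4 of the 10 were at least 2-fold below 0, TOD6 at -2.27, RAP1 at -1.63, ABF1 at -1.56 and FHL1 at -1.20, while DOT6 was at 2.10. In wild type at 7 hours 2 of 9 were that low, ABF1 at -2.17 and TOD6 at -1.26, while DOT6 was at 1.80. These genes were chosen after their values were seen. At 1 day 0 of 10 fell and 1 rose, beside 3.1% of all genes that rose. It was CRF1, a corepressor of ribosomal protein genes, with an estimate of 2.66 (SE 0.42, limma adjusted p = 0.0209). CRF1 had 0.25, 0.10, 1.42, 1.91, 1.91 and 3.33 along the deletion course, against 0.19, -0.16, -0.10, 1.31, 1.60 and 2.43 along the wild-type course. STB3, a repressor that binds promoters of ribosome-related genes, had an estimate of 1.02 at 1 day (limma adjusted p = 0.146). Of the 8 stress-induced genes, 5 rose at 1 day, against 3.1% of all genes. Among them were the heat shock genes HSP12, by 6.81 (SE 0.89, limma adjusted p = 0.00978), and HSP26, by 5.61 (SE 0.60, limma adjusted p = 0.0048). HSP104, with an estimate of 1.92, TPS1, with 1.065, and GPH1, with 0.20, did not pass (limma adjusted p = 0.212, 0.309 and 0.762).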

How the data were processed

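Ratios of sample to reference RNA were deposited by the authors on a log scale, read here as log2 values, 1 per gene and array, in 1 table with 12 sample columns. The base of the logarithm, the dyes, the reference RNA, the scanner settings and the normalization were not given in the sources used here. In this table there were 0 columns of other samples. The median over all genes was subtracted from every array. Models were fitted to the whole table with limma 3.58.1 in R 4.3.3, after tests on simulated data, and p-values were adjusted by Benjamini and Hochberg over all genes tested. Time effects and the strain effect used 10 arrays at 5 shared times (strain and time as factors), the late strain effect 6 arrays, and the slopes 12 arrays. A gene was tested where each coefficient could be estimated and enough values were present. Time effects and the strain effect needed at least 4 values per strain. Each time effect also needed a value on all 4 arrays of its 2 times. The late strain effect needed all 6 values, and the slopes at least 5 per strain. RPL22A had no value in wild type at 7 hours and RPL31A none in wild type at 3 hours, and no value was filled in. With 1 array for each strain and time, p-values measure the departure from additive strain and time effects or from straight lines, not the spread between cultures. Single arrays were compared by size, with 2-fold as the limit. The number of arrays, not a read depth, limits the precision.

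The members, the gene lists and the naming rule were chosen with earlier results of these data known. Named were all single-copy genes, the 4 most and 2 least divergent pairs, the 3 genes most and least like the rest, the largest tested changes (at most 5 per direction) or else the 3 smallest p-values, the 5 most alike other genes, and 2 genes per list. Gene symbols came from RefSeq for assembly R64, which matched 5592 of 6100 IDs. Sequences, and the planned search of promoters for motifs, were not analysed here.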

Additional observations from a re-analysis of the deposited data

How the results depend on the processing

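In every alternative run the directions of the time effects and slopes were kept, and 53 calls on single named genes were lost over all alternatives together. For 1 day against 0 hours, 5 genes passed with the values as deposited, 52 after quantile normalization, 58 without the 5-hour arrays, 0 without the 7-hour arrays and 1 without the 9-hour arrays. Calls over all genes, in either direction, moved with them. In the same order they were 298 of 5838, 1502 of 5838, 1807 of 5845, 54 of 5845 and 182 of 5842, beside 252 of 5838 in the main fit. For 7 hours, 56 passed after quantile normalization (median -2.69), 57 without 5 hours, 11 without 9 hours and 0 without 1 day. Over all genes, in either direction, these counts were 1481 of 5773, 2240 of 5782, 290 of 5777 and 23 of 5782. For 9 hours, 57 passed after quantile normalization (12.5% of all genes fell), 58 without 5 hours (17.2%), and 0 without 7 hours or without 1 day. The median strain effect was 0.11 without the 5-hour arrays, and the median strain difference at 5 hours was -2.06 after quantile normalization. After quantile normalization 45 of the 58 genes passed for the deletion slope, beside 1371 of all 6011 (275 before), and 46 for the wild-type slope, beside 852 (313 before). With slopes per log2(hours + 1), 0 passed in either strain, beside 1 and 0 of all genes for the deletion and wild-type slopes, and the deletion median was -0.80.

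When each array was left out in turn, the deletion slope passed for 0 to 28 genes (median slope -0.84 to -0.49) and the wild-type slope for 0 to 43 (median slope -1.01 to -0.69). The counts of 28 and 43 both came without the deletion array at 5 hours, beside 1158 and 1044 of all 6014 genes. The deletion count was 0 without the deletion arrays at 0 hours, 2 hours or 1 day or the wild-type array at 3 hours, and 1 without the deletion arrays at 7 or 9 hours or the wild-type arrays at 0 or 9 hours. The wild-type count was 0 without the wild-type arrays at 0, 3 or 9 hours or 1 day, 1 without the deletion arrays at 0 or 9 hours or the wild-type array at 5 hours, and 4 without the deletion array at 2 hours. The slope difference passed for 0 genes each time, with a median between -0.088 and 0.383, below 0 without the deletion array at 1 day. The cause of the other changes was not tested; fewer arrays also leave fewer degrees of freedom. The strain effect pairs the strains by time; with strain alone its median stayed at -0.66 and 0 genes passed. The labels give no replicate numbers to pair by.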
